A study of Mus musculus with 23 samples.

Results

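The genes that cut the amyloid precursor protein or break down its amyloid-β peptide were followed in whole mouse hippocampus by RNA sequencing. The set is 10 genes of the 55335 in the count table: the α-secretases Adam10 and Adam17, the β-secretases Bace1 and Bace2, the γ-secretase subunits Ncstn, Aph1a, Psenen and Psen2, and the amyloid-degrading enzymes Ide and Mme. They were taken by gene symbol and not by any measured value, and each symbol matched 1 gene. The presenilin 1 gene, whose locus is altered in one of the strains, is not among them.

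The 23 libraries came from 6 groups of mice, each library from its own animal. Wild-type mice (WT) were C57BL/6J x 129S1. Mice of the 3xTg model of Alzheimer's disease, B6;129-Psen1tm1MpmTg(APPSwe,tauP301L)1Lfa/Mmjax, have a presenilin 1 knock-in allele and transgenes for mutant human APP and tau, which a Thy1 promoter element drives in neurons. Untreated mice were 8 months old (WT-8M and 3xTg-8M, n = 4 each). Mice of 10 months had a pump that delivered fluid into the brain ventricle for 28 days, with 80 µM of an inhibitor (SCDi) of the fatty acid enzyme stearoyl-CoA desaturase in the -S groups, or vehicle alone in the -D groups. Both fluids held 0.8% DMSO. There were 4 mice each in WT-D, 3xTg-D and 3xTg-S, and 3 in WT-S. All mice were female according to the study's methods. The 8-month and 10-month libraries differ in age and infusion at once. The study also describes them as separate RNA sequencing experiments, so age, infusion and experiment cannot be told apart.

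Amyloid-β arises when β-secretase and then γ-secretase cut APP. A cut by α-secretase falls inside the amyloid-β sequence and so prevents its release. γ-secretase is a complex in which a presenilin is the catalytic subunit and nicastrin, APH-1 and PEN-2 are its partners. Insulin-degrading enzyme and neprilysin are peptidases that degrade the peptide once it is formed.

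Gene counts per library ran from 12.8M to 36.7M at 8 months and from 13.0M to 17.6M at 10 months, and replicates of a group correlated across genes with r from 0.984 to 0.993. Thy1 stood at 1330 to 2340 CPM (counts relative to library size) in the 3xTg groups and at 528 to 737 CPM in the WT groups, without overlap, which matches the labels. The marker lists for neurons, astrocytes, oligodendrocytes, microglia and endothelium (10 genes each) had no gene at 0 in all libraries. Among infused WT mice, 4 libraries (WT-D replicates 3 and 4, WT-S replicates 2 and 3) stood apart from the other 3 in Ide, as described below. These are bulk values, in which fewer cells of a type and less RNA per cell cannot be told apart. The smallest count of a member in any library was 25 (Bace2), and all 10 passed the filter on low counts in all 9 comparisons.

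The levels of the members spanned a wide range. Per kilobase of exon, the scale on which different genes can be compared, Adam10 was highest, with a median of 23.9 CPM per kb over the 23 libraries (20.4 to 26.9). Bace1 followed at 18.1 CPM per kb (16.3 to 19.2) and Ncstn at 14.0 (12.8 to 16.1). On this scale every library of Adam10 lay above every library of Bace1, and every library of Bace1 above every library of Ncstn. Ide (8.39 CPM per kb) and Psenen (5.83) came next, and their library ranges overlapped with each other, while that of Ide touched that of Ncstn. Adam17 (3.02 CPM per kb) and Psen2 (2.87) overlapped, and Aph1a (1.51) lay below both. Mme (0.788 CPM per kb) and Bace2 (0.733) were lowest and overlapped. Adam10 was thus the more abundant α-secretase and Bace1 the more abundant β-secretase in every library.

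**Figure D1:**
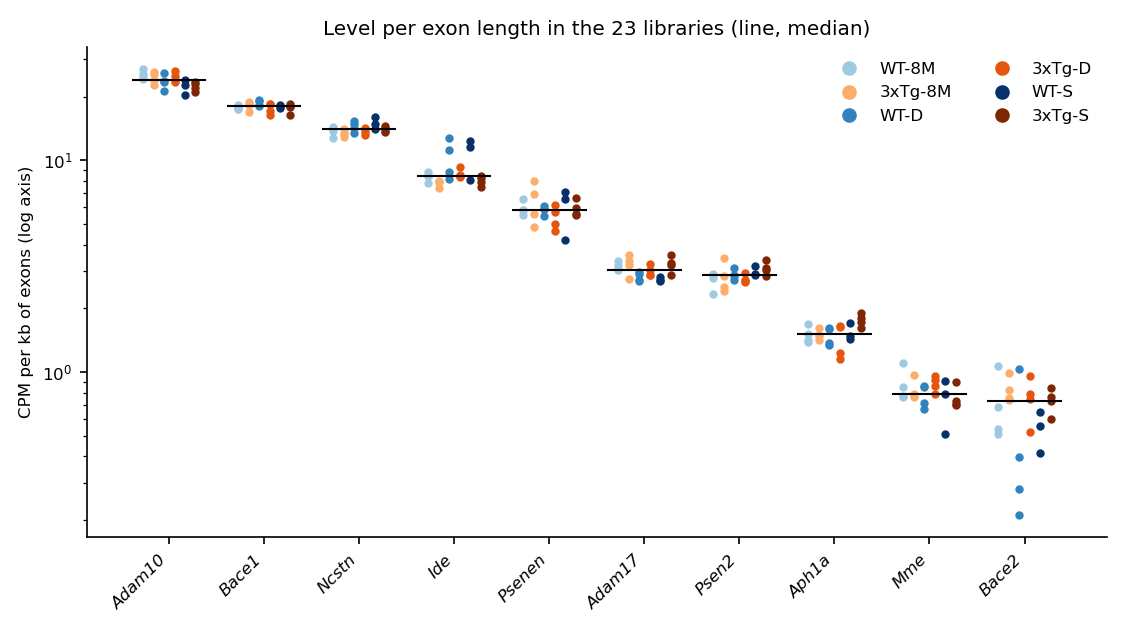
CPM per kb of exons (log axis) of the 10 genes in each of 23 libraries, coloured by group, with the median as a line. Adam10, Bace1 and Ncstn lie in separate bands in this order, and Mme and Bace2 lie lowest.

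The order partly depends on the gene model. With the longest transcript in place of all exons, the median of Psen2 was 6.15 CPM per kb and that of Adam17 was 4.84, so these genes changed places. Bace1 then had a median of 19.0 CPM per kb (17.1 to 20.1) and Ncstn 18.5 (16.9 to 21.2), so the separation of these genes was lost, while Adam10 (21.8 to 28.8) still lay above both. Several members share exon bases with a gene on the opposite strand, and whether counting used strand is not stated. Bace1 shares 975 nt with Rnf214, Aph1a shares 445 nt with Car14, Adam17 shares 311 nt with Iah1, Ncstn shares 195 nt with Copa, and Psenen shares 119 nt with U2af1l4. If counting did not use strand, reads from these stretches cannot be told apart between the genes.

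The bases upstream of the start sites are shown for Adam10, the member with the highest level, and for Mme, which was far lower, because the pair was similar in composition. They are the 250 bases before the start site in RefSeq (GRCm38.p6), 5′ to 3′ on the gene's strand, with GC boxes (GGGCGG) and CCAAT boxes (CCAAT), on either strand and with overlapping matches counted, in capitals.
Adam10, chr9:70678732-70678981, plus strand: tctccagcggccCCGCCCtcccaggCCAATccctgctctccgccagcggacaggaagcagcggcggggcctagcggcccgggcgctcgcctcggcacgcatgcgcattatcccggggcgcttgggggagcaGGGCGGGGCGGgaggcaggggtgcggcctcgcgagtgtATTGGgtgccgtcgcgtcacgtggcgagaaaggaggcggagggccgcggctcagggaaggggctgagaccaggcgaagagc
Mme, chr3:63295622-63295871, plus strand: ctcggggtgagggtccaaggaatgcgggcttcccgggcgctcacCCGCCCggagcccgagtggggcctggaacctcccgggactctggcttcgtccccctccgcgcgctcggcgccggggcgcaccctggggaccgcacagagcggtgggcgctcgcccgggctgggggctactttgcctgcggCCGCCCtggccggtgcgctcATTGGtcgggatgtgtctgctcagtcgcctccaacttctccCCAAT
The Mme start is the second of 3 listed for that gene. The stretch of the first had 45.6% GC, 2 CpG dinucleotides, 1 GC box and 0 CCAAT boxes. That of the third had 73.6% GC, 27 CpG dinucleotides, 2 GC boxes and 1 CCAAT box. Which start is used in these samples was not tested. The Adam10 stretch had 74.0% GC, 29 CpG dinucleotides, 3 GC boxes and 2 CCAAT boxes. The Mme stretch had 73.2% GC, 27 CpG dinucleotides, 2 GC boxes and 2 CCAAT boxes. Over all 32851 such stretches the medians were 52.4% GC and 6 CpG, and 32.7% held a GC box and 33.8% a CCAAT box. The table had an entry for 8 of the 10 members, with Bace1 and Bace2 not among them.

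Across the 9 comparisons, 0 of 10 members were called by edgeR's quasi-likelihood test, where a call is an adjusted p under 0.05 after Benjamini-Hochberg correction over all genes. In 3xTg-8M against WT-8M, 2.58% of all tested genes were called, and 0 of 10 members had an unadjusted p under 0.05, where 17.4% of all genes had one. In 3xTg-D against WT-D the background was 1.39% called and 13.1% at an unadjusted p under 0.05, with 0 of 10 members in either. The smallest adjusted p of a member was 0.406 at 8 months and 0.403 at 10 months, in each case that of Ide (edgeR quasi-likelihood test).

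Among comparisons with inhibitor-treated 3xTg mice, 1 of 10 members had an unadjusted p under 0.05 against 3xTg-D (0% of all genes called, 11.2% at that p), 3 of 10 against WT-S (1.32% and 10.6%) and 2 of 10 against WT-D (2.29% and 16.9%). In WT-S against WT-D it was 0 of 10, with 0% and 3.42% of all genes. The inhibitor over both strains gave 1 of 10 (0% and 13.6%), and the interaction of strain and inhibitor gave 0 of 10 (0% and 2.32%). The strain difference at 10 months under vehicle, tested against that at 8 months, gave 0 of 10 (0.0621% and 9.57%). The members' shares lie near these backgrounds, apart from 3xTg-S against WT-S, where 3 of 10 compares with 10.6%. The median log2 fold change of the 10 members ran from -0.07 to 0.04 over the 9 comparisons, and that of all tested genes was within 0.01 of 0 in each. The WT-D libraries serve in 3 pairs and the 3xTg-S libraries in 3, so these comparisons are not independent of each other.

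The groups did not overlap for 1 of 10 members in 3xTg-S against WT-S (Adam17), where 10.8% of all genes did not overlap. In the other 5 pairs it was 0 of 10. The share over all genes was 11.3% in 3xTg-8M against WT-8M, 7.79% in 3xTg-D against WT-D, 7.03% in 3xTg-S against 3xTg-D, 4.88% in WT-S against WT-D and 10.4% in 3xTg-S against WT-D.

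**Figure D2:**
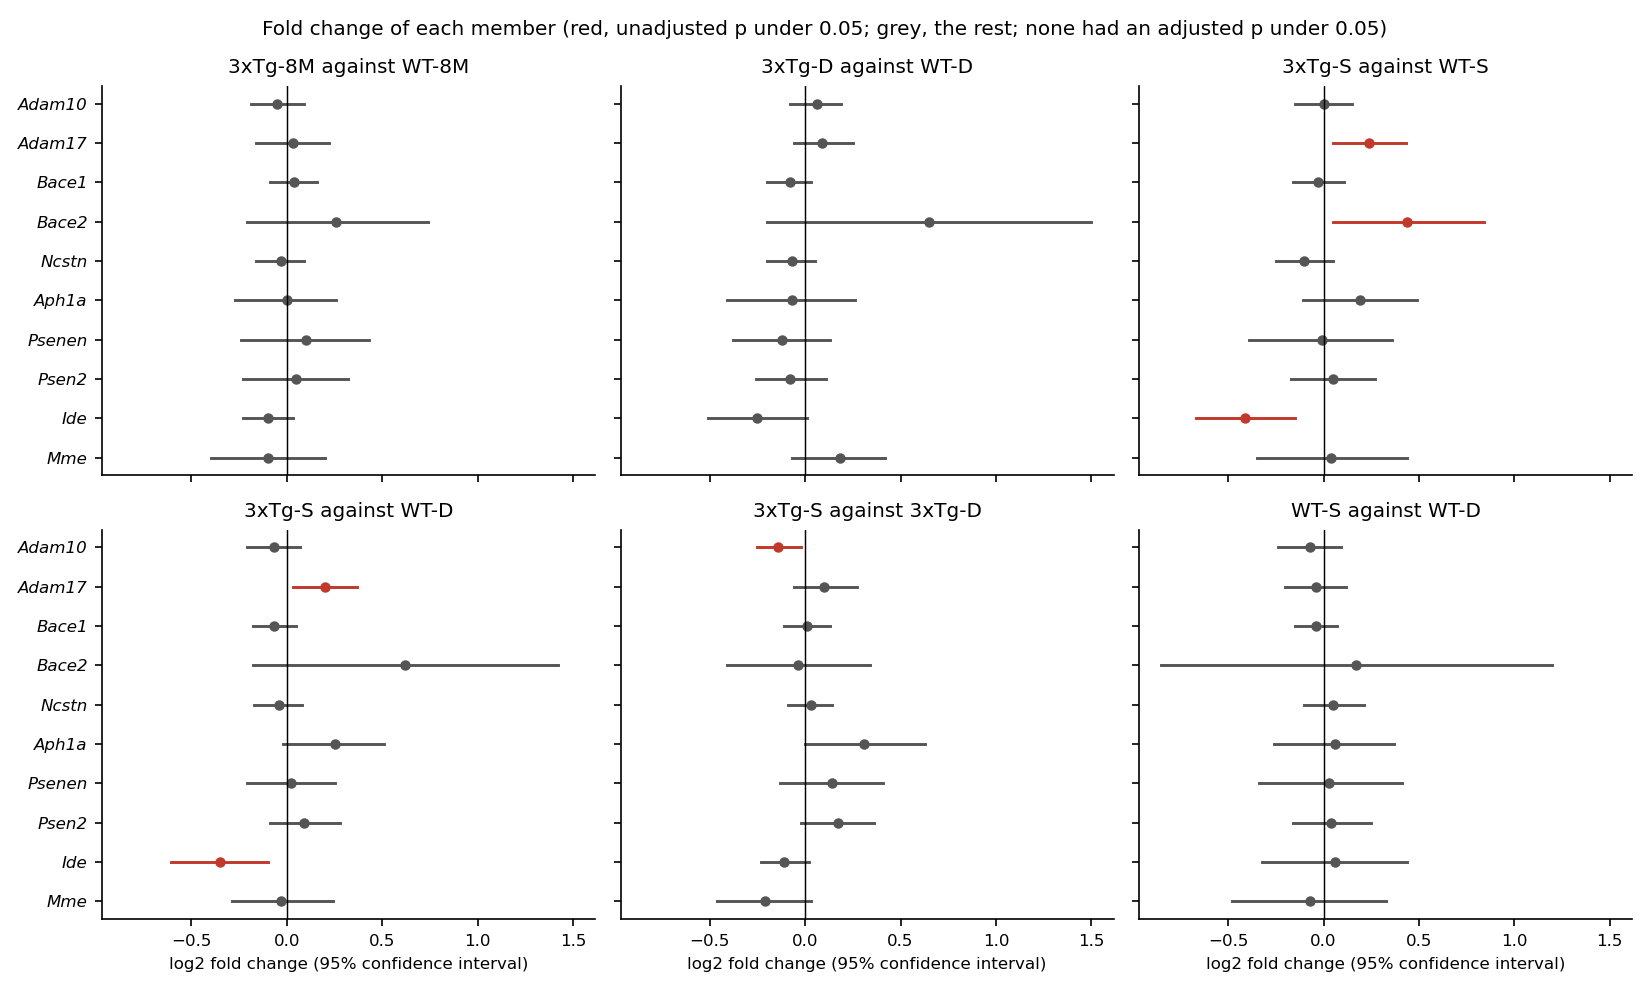
Log2 fold change (x axis) of each member with its 95% confidence interval in 6 pairs of groups, red where the unadjusted p was under 0.05. Ide lies to the left in 3xTg-S against WT-S (-0.41) and against WT-D (-0.35), and Bace2 has the widest intervals.

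Adam10 encodes the main α-secretase of neurons. Its level was 132, 125, 119 and 123 CPM in WT-8M and 118, 125, 128 and 111 CPM in 3xTg-8M. In the vehicle groups it was 126, 116, 117 and 104 CPM in WT-D and 123, 129, 115 and 117 CPM in 3xTg-D. With inhibitor it was 112, 117 and 100 CPM in WT-S and 113, 108, 103 and 115 CPM in 3xTg-S. The highest 3xTg-S library and the lowest 3xTg-D library were both at 115 CPM, while the groups of all other pairs overlapped more widely.

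The log2 fold change of Adam10 in 3xTg-S against 3xTg-D was -0.14 (SE 0.05, adjusted p = 0.407, edgeR quasi-likelihood test). In WT-S against WT-D it was -0.07 (95% interval -0.24 to 0.09), and over both strains -0.11 (SE 0.05, adjusted p = 0.311). The interaction was -0.06 (95% interval -0.26 to 0.14), so no difference between the strains was shown. Within the runs of animal numbers that pair 3xTg-S with 3xTg-D, the differences in Adam10 were -0.12, -0.26, -0.16 and -0.02 on the log2 scale. They come from the same libraries as the fold change, and a single sign over the runs was not particular to Adam10. Aph1a (0.47, 0.20, 0.54 and 0.07) and Psen2 (0.06, 0.35, 0.16 and 0.07) were higher in every run. Ide (-0.04, -0.15, -0.01 and -0.22) was lower in every run. Over 14 alternatives the log2 fold change of Adam10 ran from -0.16 to -0.07, with an unadjusted p under 0.05 in 10 and an adjusted p under 0.05 in 0.

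A property of the libraries moved with this result. The slope of expression on transcript length ran from -0.0986 to 0.00409 in 3xTg-S and from 0.0224 to 0.0508 in 3xTg-D. Over the 23 libraries, with group means removed, the log2 level of Adam10 had r = 0.55 with that slope, Bace1 0.64, Adam17 0.63 and Psen2 -0.77, as a description over libraries that share depth and preparation. The part of the slope in the Adam10 value was not tested beyond an offset for length and GC, which is among the alternatives above.

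Adam17 encodes TACE, the sheddase of TNF, which can also act as an α-secretase. Its level was 20.1, 19.1 and 19.4 CPM in WT-S and 23.4, 20.6, 25.6 and 22.9 CPM in 3xTg-S. In the vehicle groups it was 20.7, 21.2, 19.1 and 19.4 CPM in WT-D and 21.8, 20.6, 20.5 and 23.1 CPM in 3xTg-D. All 4 libraries of 3xTg-S lay above all 3 of WT-S, while the vehicle groups overlapped. At 8 months Adam17 ran from 21.6 to 23.9 CPM in WT-8M and from 19.7 to 25.6 CPM in 3xTg-8M.

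For Adam17 the log2 fold change in 3xTg-S against WT-S was 0.24 (SE 0.09, adjusted p = 0.300) and in 3xTg-S against WT-D 0.20 (SE 0.08, adjusted p = 0.217, both edgeR quasi-likelihood test). Under vehicle the strain difference was 0.09 (95% interval -0.06 to 0.25). The interaction, 0.15 (95% interval -0.08 to 0.37), does not show that the strains differ in their response. Within runs, Adam17 differed between 3xTg-S and WT-S by 0.04, 0.42 and 0.24 on the log2 scale.

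**Figure D3:**
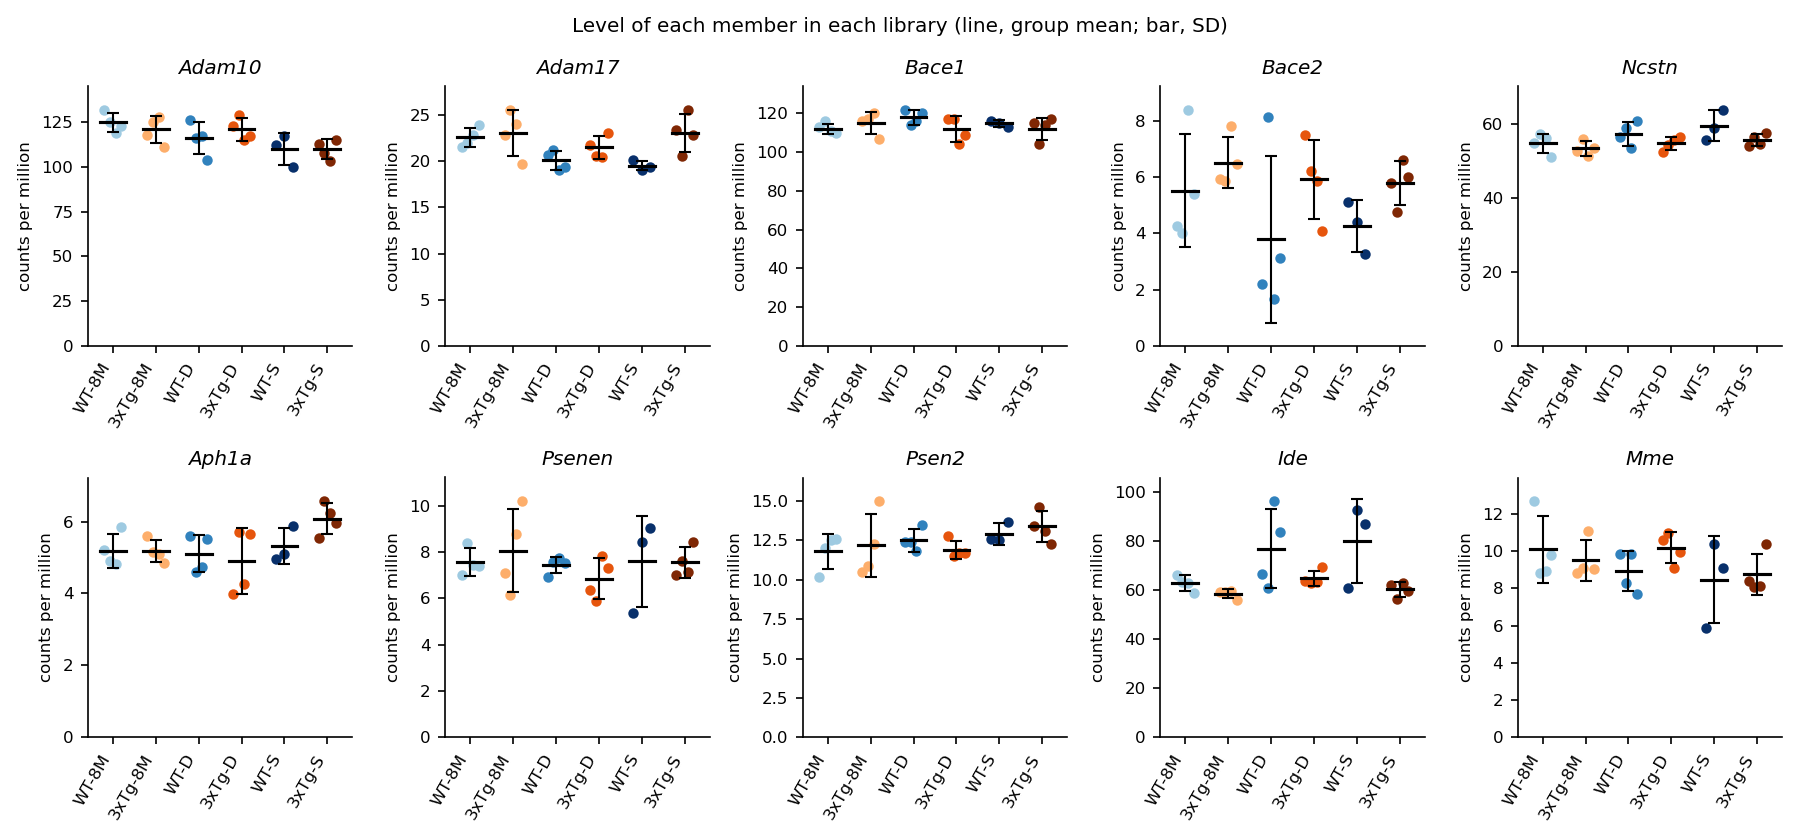
CPM (y axis, from 0) of each member in every library by group, with the group mean and SD. Most members overlap across the 6 groups. Bace2 spreads most widely within WT-D, and Ide within WT-D and WT-S. Adam17 is higher in 3xTg-S (20.6 to 25.6) than in WT-S (19.1 to 20.1).

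Some markers of oligodendrocytes, microglia and hippocampal subfields differed in 3xTg-S against WT-S as well. In that pair, 4 of 10 oligodendrocyte markers and 4 of 10 microglia markers were called, all higher in 3xTg-S. In each list 8 of 10 had an unadjusted p under 0.05. Of all genes, 1.32% were called there and 10.6% had such a p. Of the astrocyte markers, 0 of 10 were called and 2 of 10 had such a p. The calls were not particular to this pair. In 3xTg-S against WT-D, 4 oligodendrocyte and 5 microglia markers were called, and in 3xTg-D against WT-D 2 microglia markers. The summed oligodendrocyte markers ran from 6060 to 6860 CPM in 3xTg-S, 4070 to 5180 in WT-S, 4350 to 5540 in WT-D and 3810 to 6110 in 3xTg-D. The summed microglia markers ran from 475 to 589 CPM in 3xTg-S, 401 to 426 in WT-S and 375 to 434 in WT-D, and they reached 598 in 3xTg-D. In 3xTg-S against WT-S, 2 of 10 markers of hippocampal subfields were called, both lower in 3xTg-S, with 4 of 10 lower at an unadjusted p under 0.05. Their sum ran from 839 to 1030 CPM in 3xTg-S and from 993 to 1120 in WT-S. No marker of these lists was at 0 throughout. Their part in the values of Adam17, Bace2 and Ide was not tested.

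Bace1 encodes the main neuronal β-secretase and was the steadiest member. Its within-group coefficient of variation was 4.14%, where the median of 16555 genes was 10.7%. Group means ran from 112 ± 6.75 CPM in 3xTg-D to 118 ± 3.70 CPM in WT-D (SD, n = 4 each), and all libraries from 104 to 122 CPM. The group means of Bace1 differed by at most 1.06-fold. Its log2 fold change was 0.04 at 8 months (95% interval -0.09 to 0.16), -0.08 in 3xTg-D against WT-D (-0.20 to 0.03) and -0.01 for the inhibitor over both strains (-0.09 to 0.06). All 3 intervals of Bace1 included 0.

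Bace2, the paralog of Bace1 with low expression in neurons, was the most variable member, with a within-group coefficient of variation of 31.7%. It stood at 4.25, 4.03, 8.41 and 5.39 CPM in WT-8M and 5.94, 5.86, 7.82 and 6.47 CPM in 3xTg-8M. In the vehicle groups it was 2.21, 8.15, 1.67 and 3.13 CPM in WT-D and 7.52, 6.23, 5.87 and 4.10 CPM in 3xTg-D. With inhibitor it was 5.12, 4.39 and 3.27 CPM in WT-S and 5.78, 4.75, 6.62 and 6.02 CPM in 3xTg-S. WT-D replicate 2 lay above all libraries of 3xTg-D, and the other 3 WT-D libraries lay below all of them.

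The fold changes of Bace2 depended on which library was included. In 3xTg-D against WT-D the log2 fold change was 0.65 (SE 0.39, adjusted p = 0.534, edgeR quasi-likelihood test). Without WT-D replicate 2 it was 1.34 with an adjusted p = 0.0238, and without WT-D replicate 3 it was 0.41 with an adjusted p = 0.690. In 3xTg-S against WT-D it was 0.62 (SE 0.37, adjusted p = 0.415), 1.30 with an adjusted p = 0.00676 without WT-D replicate 2, and 0.38 with an adjusted p = 0.642 without WT-D replicate 3. In WT-S against WT-D it was 0.17 (95% interval -0.85 to 1.20), and 0.86 without WT-D replicate 2 (adjusted p = 0.973). In 3xTg-S against WT-S, where WT-D has no part, Bace2 had 0.44 (SE 0.18, adjusted p = 0.397), or 0.28 without WT-S replicate 3. At 8 months Bace2 had 0.26 (95% interval -0.21 to 0.74). It had 0.50 without WT-8M replicate 3 (adjusted p = 0.149), 0.13 without WT-8M replicate 1, 0.15 without WT-8M replicate 2 and 0.16 without 3xTg-8M replicate 3.

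The gene (mean level of 5 CPM or more) most like Bace2 across the 23 libraries, group means removed, was Hspa8, a constitutive heat shock chaperone (r = 0.79), followed by Cpne2 (r = 0.76). Hspa8 was at 104, 366, 110 and 112 CPM in WT-D and 251, 114 and 132 CPM in WT-S. All libraries of 3xTg-D and 3xTg-S were at 316 CPM or more. As with Bace2, WT-D replicate 2 was the high library of its group, and WT-S replicate 1 was the highest of WT-S in both genes. In WT-8M, Hspa8 was at 224 and 248 CPM in replicates 1 and 2, the pair that was also lower in Bace2. Hspa8 was highest there in replicate 4 (437 CPM), but Bace2 in replicate 3 (8.41 CPM). In 3xTg-8M, Hspa8 was highest in replicate 1 (425 CPM) and Bace2 in replicate 3 (7.82 CPM). As Hspa8 was named for its likeness to Bace2 in these same libraries, the shared high libraries are a description. Hspa8 has processed copies elsewhere in the genome, so its counts are uncertain.

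No γ-secretase subunit among the members passed the test in any of the 9 comparisons. Ncstn, nicastrin, had a within-group coefficient of variation of 4.89% and group means from 53.3 ± 1.93 CPM in 3xTg-8M (SD, n = 4) to 59.4 ± 4.17 CPM in WT-S (SD, n = 3). Its log2 fold changes in the 6 pairs ran from -0.10 in 3xTg-S against WT-S to 0.05 in WT-S against WT-D. The 95% interval of Ncstn included 0 in all 6 pairs.

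Aph1a, a scaffold subunit, was at 5.54, 6.57, 6.25 and 5.95 CPM in 3xTg-S and 3.98, 5.70, 4.25 and 5.66 CPM in 3xTg-D. Its log2 fold change there was 0.31 (SE 0.15, adjusted p = 0.452), and 0.19 for the inhibitor over both strains (SE 0.10, adjusted p = 0.415, edgeR quasi-likelihood test). The 2 higher libraries of 3xTg-D lay within the range of 3xTg-S and the 2 lower ones below it. Counts of Aph1a were between 55 and 189 per library.

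Psen2, the second presenilin, ran from 12.3 to 14.6 CPM in 3xTg-S and from 11.5 to 12.8 CPM in 3xTg-D. The log2 fold change was 0.17 (SE 0.09, adjusted p = 0.494) in 3xTg mice and 0.04 (95% interval -0.16 to 0.25) in WT mice. Psenen, which encodes PEN-2, ran from 5.35 to 10.2 CPM over all libraries, and its log2 fold changes in the 6 pairs lay between -0.12 and 0.14, each with a 95% interval that included 0. Psen2 and Psenen did not pass the test in any pair, and the ranges of their groups overlapped in all of them. Relative to Ncstn counts, the mean log2 ratio of Psen2 was between -2.22 and -2.06 in the 6 groups, that of Psenen between -3.00 and -2.75 and that of Aph1a between -3.50 and -3.20, as a description. The highest Psen2 and Aph1a ratios were in 3xTg-S (-2.06 ± 0.12 and -3.20 ± 0.10, SD, n = 4). With the length slope, Psen2 had r = -0.77, Ncstn -0.16 and Aph1a -0.03. The part of the slope in these ratios was not tested.

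The ratio of the main β-secretase to the main α-secretase is free of library size. The mean log2 ratio of Bace1 to Adam10 counts was -0.15 ± 0.06 in WT-8M, -0.07 ± 0.03 in 3xTg-8M, 0.03 ± 0.12 in WT-D, -0.12 ± 0.04 in 3xTg-D and 0.03 ± 0.08 in 3xTg-S (SD, n = 4 each), and 0.06 ± 0.10 in WT-S (SD, n = 3). The ratio is built from Bace1 and Adam10 themselves, so no test is given, and both genes moved with the length slope.

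Ide encodes insulin-degrading enzyme, a zinc peptidase of insulin and amyloid-β, and lies on chromosome 19 (37268743 to 37337852, GRCm38). It was at 66.3, 63.5, 63.1 and 58.8 CPM in WT-8M and 59.4, 59.2, 59.8 and 55.8 CPM in 3xTg-8M. In the vehicle groups it was at 66.4, 61.0, 96.3 and 83.9 CPM in WT-D and 63.9, 62.8, 63.3 and 69.5 CPM in 3xTg-D. With inhibitor it was at 60.7, 92.8 and 86.8 CPM in WT-S and 62.1, 56.4, 63.0 and 59.5 CPM in 3xTg-S. The WT-D and WT-S groups were split: WT-D replicates 3 and 4 and WT-S replicates 2 and 3 were at 83.9 to 96.3 CPM, while the other 19 libraries of the series were at 55.8 to 69.5 CPM.

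The log2 fold change of Ide in 3xTg-S against WT-S was -0.41 (SE 0.12, 95% interval -0.67 to -0.15, adjusted p = 0.169, edgeR quasi-likelihood test). It was -0.58 with an adjusted p = 0.00162 without WT-S replicate 1, and -0.29 with an adjusted p = 0.495 without WT-S replicate 2. In 3xTg-S against WT-D it was -0.35 (SE 0.12, adjusted p = 0.157), -0.45 with an adjusted p = 0.0497 without WT-D replicate 2, and -0.23 with an adjusted p = 0.294 without WT-D replicate 3. In 3xTg-D against WT-D the log2 fold change of Ide was -0.25 (95% interval -0.51 to 0.01), or -0.13 without WT-D replicate 3, and at 8 months -0.10 (-0.23 to 0.03). The log2 fold change of Ide with inhibitor was -0.11 in 3xTg mice (95% interval -0.23 to 0.02) and 0.06 in WT (-0.32 to 0.44).

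The labels give each infused mouse an animal number, and in that order the 3 WT mice with the low level came first and the 4 with the high level last. Within runs of 4 consecutive numbers, the 3xTg minus WT difference of Ide under vehicle was -0.06, 0.04, -0.61 and -0.27 on the log2 scale, and under inhibitor it was -0.10, -0.56 and -0.54 in the second to the fourth run. The WT value of Ide was the higher one by 0.27 or more in the third and the fourth run, and the strains were within 0.10 of each other in the earlier runs. The labels do not say whether these runs are litters, cages or surgery days, and 3xTg mice of the later runs did not show the high level. With runs as a block, 0 of 10 members were called in any comparison in which it could be fitted.

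The genes most like Ide were Fut10, a fucosyltransferase gene on chromosome 8 (r = 0.90), and Serpina3n, an acute-phase protease inhibitor made by reactive astrocytes, on chromosome 12 (r = 0.88), out of 11650 candidates. Fut10 was at 4.66, 3.54, 12 and 10.2 CPM in WT-D and 3.03, 11.9 and 10.0 CPM in WT-S. Serpina3n was at 51.4, 46.0, 246 and 265 CPM in WT-D and 52.8, 239 and 262 CPM in WT-S. The same 4 libraries that were high in Ide were high in both genes.

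The 3 genes did not share one pattern over the rest of the series. In 3xTg-D and 3xTg-S, Serpina3n ran from 46.3 to 86.3 CPM, near the low WT libraries, while Fut10 ran from 10.2 to 13.5 CPM, near the high ones. In WT-8M, Serpina3n was at 206, 240, 160 and 265 CPM, whereas Ide was at its low level there. Serpina3n has close paralogs beside it on its chromosome, so its counts are uncertain. As the pair was named for its likeness to Ide, the shared split is a description.

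**Figure D4:**
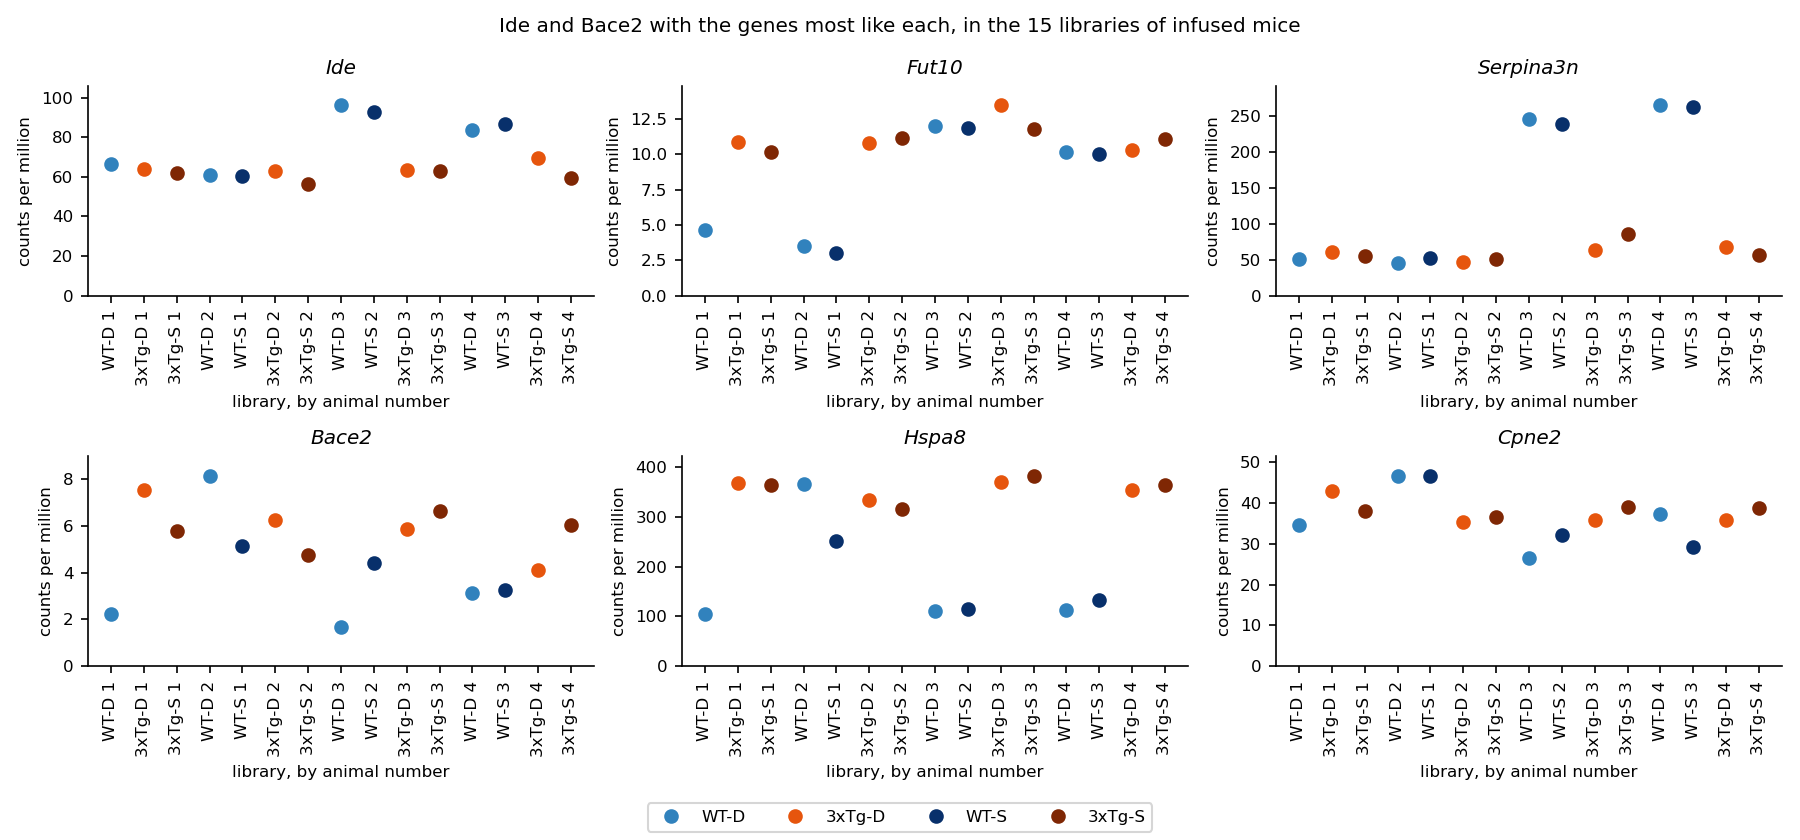
CPM (y axis, from 0) of Ide and Bace2 and of the 2 genes most like each, in the 15 libraries of infused mice in order of the animal number in the labels (x axis). In Ide, Fut10 and Serpina3n, WT-D 3 and 4 and WT-S 2 and 3 lie above WT-D 1 and 2 and WT-S 1, and in Bace2 and Hspa8 WT-D 2 lies highest among WT.

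Among genes near Ide, Btaf1, 256 kb away, was at 55.3, 53.9, 70.6 and 63.8 CPM in WT-D and 58.1, 61.0 and 62.1 CPM in WT-S. The 4 infused WT libraries with high Ide were also the higher ones in Btaf1, with smaller differences, and 3xTg-D replicate 3 was at 69.0 CPM in Btaf1 without a high Ide level. Over the 23 libraries, genes within 500 kb of Ide at a mean of 1 CPM or more had r with it from -0.09 (Cpeb3) to 0.50 (Btaf1), and Kif11, the nearest, had 0.10. These neighbours were examined after the values of Ide were seen.

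Mme encodes neprilysin, a membrane peptidase. It was at 5.90, 10.4 and 9.09 CPM in WT-S and 8.40, 8.06, 8.16 and 10.4 CPM in 3xTg-S. In the vehicle groups it was at 9.85, 8.29, 9.87 and 7.72 CPM in WT-D and 10.6, 11, 9.11 and 9.98 CPM in 3xTg-D. At 8 months it ran from 8.84 to 12.7 CPM in WT-8M and from 8.82 to 11.1 CPM in 3xTg-8M. All groups of Mme overlapped. Its log2 fold change was -0.21 in 3xTg-S against 3xTg-D (SE 0.11, adjusted p = 0.494), 0.18 in 3xTg-D against WT-D (SE 0.11, adjusted p = 0.552, edgeR quasi-likelihood test) and within 0.10 of 0 in the other pairs.

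For the remaining members, the most similar genes by the same measure were Nr3c1 (r = 0.92) and Gsk3b (0.90) for Adam10, Ints6 and Foxj3 (0.85 each) for Bace1, and St5 (0.86) and Map4k4 (0.85) for Adam17. For the γ-secretase subunits they were Ei24 (0.78) and Gps2 (0.72) for Ncstn, Impdh1 and Zfp653 (0.71 each) for Aph1a, Bloc1s1 (0.80) and Mak16 (0.76) for Psenen, and Nudt18 (0.86) and Tsfm (0.85) for Psen2. For Mme they were Trub1 (0.85) and Cntn3 (0.79). Among the members themselves the strongest likenesses were Bace1 with Adam10 (0.54), and Ide with Mme and Adam10 with Mme (0.50 each), and the most opposed were Bace2 with Ide (-0.54) and Adam10 with Psen2 (-0.53). Subunits of γ-secretase did not track each other closely, with 0.35 for Ncstn and Psenen and 0.46 for Psenen and Psen2. All of these are r values over 23 libraries, which share depth and length-related trends. The most similar genes were picked as the highest of 11650 candidates. How high the best r of so many would be without any link was not tested.

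Around the 10 members, 67 genes of the pathway were listed (secretase substrates, partners of α-secretase, BACE1 traffic, partners of γ-secretase and other amyloid proteases), of which 63 were tested. In 3xTg-8M against WT-8M, 1 of 63 was called, the substrate App, at 2260 ± 103 against 1690 ± 52.3 CPM in WT-8M (SD, n = 4 in either group), which is 0.42 on the log2 scale (adjusted p = 0.00196). App was also the 1 called in 3xTg-D against WT-D (0.41, adjusted p = 0.00322). Reads of the human transgene that match the mouse gene are part of the App value. In 3xTg-S against WT-D, 2 were called, App (0.32, adjusted p = 0.0345) and Cst3, the protease inhibitor cystatin C (1050 ± 108 against 795 ± 62.2 CPM, 0.41, adjusted p = 0.0202). In 3xTg-S against WT-S, 1 was called, Scn2b, a sodium channel subunit that BACE1 cleaves (263 ± 7.05 CPM, n = 4, against 196 ± 26.8 CPM, n = 3, 0.43, adjusted p = 0.0235, all edgeR quasi-likelihood test).

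All of these calls were of higher levels in 3xTg mice. None of the 63 (0) was called in the other 5 comparisons, and 0 were called lower in any. At an unadjusted p under 0.05, the share of the 63 was 17.5% in 3xTg-8M against WT-8M, 15.9% in 3xTg-D against WT-D, 15.9% in 3xTg-S against 3xTg-D, 4.76% in WT-S against WT-D, 12.7% in 3xTg-S against WT-S and 20.6% in 3xTg-S against WT-D. These shares lie near the backgrounds over all genes given above. For the inhibitor over both strains the share was 12.7% (13.6% of all genes), and for the strain difference across ages 7.94% (9.57%). In the interaction of strain and inhibitor it was 7.94%, above the 2.32% of all genes. App was called in 3 pairs, and its secretases and degrading enzymes in 0. In 3xTg-S against WT-S, App was not called, with a log2 fold change of 0.32 (adjusted p = 0.0791, edgeR quasi-likelihood test).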

How the data were processed

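Hippocampal RNA of 23 mice was sequenced as polyadenylated RNA, from 1 end. According to the labels, the authors used Trimmomatic 0.35 for trimming and STAR 2.5.1b for alignment, with GRCm38 as the genome. The deposited values are raw counts of reads per gene, neither normalised nor pooled. The study's methods name adapters with molecular identifiers. Whether counting collapsed them, and its strand setting, are not given in the sources used here. Rows without a gene (unmapped, ambiguous and the like) held 24.7% to 30.9% of reads and were left out.

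Each comparison was fitted on its own libraries with edgeR 4.0.16 in R 4.3.3 (filterByExpr, TMM, quasi-likelihood test), with Benjamini-Hochberg adjustment over all genes tested. Groups came from the labels, and p-values measure the spread between the animals of a group. Levels per kb used exons of Gencode M21. Likeness is Pearson's r of log2 CPM (prior count 2) with group means removed. The scripts were tested on simulated data. Alternatives were DESeq2 1.42.0 (likelihood ratio test, or its scaling used within edgeR), no low-count filter, the study's own threshold of an unadjusted p under 0.01, a length and GC offset, a block for animal numbers taken 4 at a time in sequence, all 15 infused libraries in 1 fit, each library left out in turn, and the longest transcript as gene length.

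Every member is named, with pathway genes that were called, App and Thy1 as checks of the transgenes, and the 2 genes most like each member. Aph1b and Aph1c are named beside Aph1a. The members and lists were chosen with earlier results of these data known. The presenilin 1 gene is not reported here.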

Additional observations from a re-analysis of the deposited data

Results flagged for a closer look

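Among the 10 members in the 5 groups of 4 libraries (50 tests, of which chance alone would mark about 1 in 20), 3 values lay far from the rest of their group by Dixon's criterion. Ide in 3xTg-8M replicate 4 was at 55.8 CPM, where the other libraries of the group were at 59.2 to 59.8 CPM. Mme in 3xTg-8M replicate 3 was at 11.1 CPM, where the others were at 8.82 to 9.09 CPM. Mme in 3xTg-S replicate 4 was at 10.4 CPM, where the others were at 8.06 to 8.40 CPM. The criterion does not mark the split of Ide in WT-D, since 2 libraries there lie together on the high side, and WT-S has too few libraries to be examined.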

How the results depend on the processing

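Of 1400 values of a member in a comparison under an alternative, 1389 stayed within 1 within-group SD and on the same side of the threshold. A further 4 moved by more, and 7 passed the threshold where the reported value had not. As no member was called in the reported fits, there was no called value to reverse. Members called in 3xTg-D against WT-D ranged from 0 to 1 when a library was left out (1, Bace2, without WT-D replicate 2). In 3xTg-S against WT-S, 1 member was called without a filter on low counts, 1 by the DESeq2 likelihood ratio test, 1 at an unadjusted p under 0.01, and 0 to 1 with a library left out (1 without WT-S replicate 1), Ide in each case. Its adjusted p was 0.000118 without the filter, 0.0403 by DESeq2 and 0.00162 without WT-S replicate 1. In 3xTg-S against WT-D, 1 member was called without the filter (Ide, adjusted p 0.000866), and 0 to 2 with a library left out (2, Bace2 and Ide, without WT-D replicate 2). Why the filter matters for Ide was not tested. The block for runs of animal numbers changed no member's call.

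Counts over all genes called moved more. Without a filter they were 854 against 399 for 3xTg-8M with WT-8M, 792 against 216 for 3xTg-D with WT-D, 1135 against 356 for 3xTg-S with WT-D, 729 against 206 for 3xTg-S with WT-S, 112 against 0 for 3xTg-S with 3xTg-D, 94 against 0 for the inhibitor over both strains and 33 against 10 for the strain difference across ages. By the DESeq2 likelihood ratio test they were 684, 577, 285, 14, 55 and 21 in the same order, leaving out 3xTg-D with WT-D, where the count was also over 1.5 times the reported one. With a library left out, the all genes counts fell to 227 against 399 (without 3xTg-8M replicate 1; 241 without 3xTg-8M replicate 2), 125 against 216 (without 3xTg-D replicate 2), 155 against 356 (3xTg-S replicate 1 left out, or 226 with replicate 4 of that group left out) and 105 against 206 (3xTg-S replicate 1 left out, or 114 with its replicate 4 and 135 with WT-S replicate 3 left out), so the background shares carry that range. For the strain difference across ages they ran from 6 to 17. The lowest count of Bace2 in a library was 25, and its 95% interval in WT-S against WT-D (-0.85 to 1.20) includes changes of either sign.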
